A study of Mus musculus with 21 samples.

Results

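Mesothelial-like cells were compared between lung melanoma metastases and unchallenged lung. They were chosen from the count values themselves as cells with a UMI (unique molecular identifier, standing for 1 captured RNA molecule) of at least 2 of the 6 marker genes *Upk3b*, *Msln*, *Wt1*, *Lrrn4*, *Gpm6a* and *Pkhd1l1*. Cells with any UMI of the leukocyte gene *Ptprc*, the endothelial genes *Pecam1* and *Vwf* or the ciliated cell gene *Sec14l3* were left out. This gave 100 cells out of 45034 in the lung and metastasis tumor microenvironment (TME) libraries, and out of 100359 cells in the whole series, with each cell counted a single time. Of these, 14 came from unchallenged lung and 86 from metastases. The host animals were mT/mG mice, in which all host cells carry membrane tdTomato from the ubiquitously active *Rosa26* locus. Fragments of the mouse melanoma MT-ret were transplanted under the skin of young adult mice of both sexes, the primary tumor was resected, and lung metastases grew from unlabeled tumor cells. Unchallenged lungs were normal lung tissue, and the genotype of their mice was not stated, although the sort for tdTomato+ cells is given for all tissues. Cells were dissociated, frozen, thawed and sorted as living tdTomato+ cells or as living tdTomato+ CD45- cells. Neither the gate used for each library nor the age of the unchallenged mice was stated in the labels or methods.

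The mesothelium is the flat epithelial sheet that covers the lung as visceral pleura. Its cells carry keratins and surface glycoproteins such as mesothelin and mucin 16 together with mesenchymal genes such as *Wt1*, and they line the pleural cavity with a slippery surface. Mesothelial cells are known to take up fibroblast features and to secrete matrix and inflammatory proteins when the pleura is injured or reached by tumor.

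Nearly all members lay in 4 libraries, and these 4 were tested. Lung replicate 5 held 5 members among 6009 cells (0.0832%), and lung replicate 6 held 8 among 25966 (0.0308%). Metastasis replicate 5 held 65 among 5166 cells (1.26%), and metastasis replicate 6 held 20 among 1036 (1.93%). Lung replicate 1 and the pooled metastasis replicates 1-3 held 1 member each and were not tested, and replicate 4 of both tissues held 0. These shares follow from the choice of cells and from the sorts, and they are no estimate of how much mesothelium a tissue had. The summed counts of the members were 22538 and 27219 UMIs in the lung libraries and 365385 and 138863 in the metastasis libraries. A member had a median of 4526 and 1265 UMIs in lung replicates 5 and 6, and of 4587 and 6578 in metastasis replicates 5 and 6. In lung replicate 6 a single cell gave 37.6% of all member UMIs, and in lung replicate 5 a single cell gave 34.1%. In a sum over few cells, fewer cells with a transcript and less transcript per cell cannot be told apart.

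The choice also cost different numbers of cells in each library. Before the 4 exclusion genes were applied, 10 and 82 lung cells and 77 and 25 metastasis cells had at least 2 markers. In lung replicate 6, 74 of the 82 cells were dropped, 62 of them with a UMI of *Ptprc* and 35 with a UMI of *Sec14l3*, while 40.8% of all cells of that library had a *Sec14l3* UMI. Metastasis replicate 6 was also deposited under a library name of sorted melanoma (MM) cells, with the same barcodes and counts. Between 2 and 48 barcodes were shared by any pair of the 4 libraries, and 0 of them among members.

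The marker genes that chose the cells are described here without a test. *Upk3b*, which encodes a uroplakin of the mesothelial surface, stood at 2396 and 1617 CPM (counts scaled to a common total per library) in lung replicates 5 and 6 and at 898 and 122 CPM in metastasis replicates 5 and 6. *Msln*, encoding mesothelin, stood at 1420, 1212, 1119 and 259 CPM in the same order. *Wt1*, a transcription factor of the embryonic and adult mesothelium, stood at 311, 257, 189 and 490 CPM. The other 3 markers were *Lrrn4* (1375, 1176, 194 and 108 CPM), *Gpm6a* (1730, 1323, 296 and 223 CPM) and *Pkhd1l1* (976, 441, 320 and 353 CPM). All 6 markers were present in 2 of 5 and 3 of 8 lung members and in 6 of 65 and 2 of 20 metastasis members. At the threshold of 2 markers stood 1 of 5 and 3 of 8 lung members and 23 of 65 and 7 of 20 metastasis members, with the highest share (37.5%) in lung replicate 6. *Upk3b* itself was seen in 5 of 5, 7 of 8, 51 of 65 and 9 of 20 members.

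Genes outside the rule bore on the name of the cells. Of 20 further mesothelial genes, 19 were detected, among them *Krt7*, *Krt8*, *Krt18*, *Krt19*, *Upk1b*, *Muc16*, *Aldh1a2* and *Nkain4*, while *Calb2*, the gene of calretinin, was at 0 in each of the 4 libraries. Detection alone says little, since 10 of 10 melanoma, 12 of 12 macrophage, 10 of 10 endothelial and 6 of 12 lymphocyte genes were detected too. The 20 genes summed to 15796, 12197, 9686 and 3701 CPM in members and to 1105, 1221, 814 and 1243 CPM in the other cells of these libraries. At least 1 of the 4 keratins was seen in 5 of 5, 4 of 8, 40 of 65 and 13 of 20 members. Genes of fibroblasts were present as well, and a UMI of at least 2 of *Dcn*, *Lum*, *Inmt*, *Npnt* and *Pdgfra* was seen in 0 of 5, 3 of 8, 25 of 65 and 14 of 20 members. In metastasis, cells at the edge of the rule had lower keratin levels than the rest. Metastasis members with exactly 2 markers had 95.9 and 43.8 CPM summed over the 4 keratins, against 2693 and 1287 CPM in members with 3 or more. Most of the 120 keratin counts behind the value of replicate 6 came from a single cell (25 of *Krt7*, 6 of *Krt8*, 17 of *Krt18* and 36 of *Krt19*). The 1 and 3 lung cells with exactly 2 markers held 1130 and 3436 UMIs in all, too few for such a comparison. The collagens *Col1a1*, *Col1a2* and *Col3a1* summed to 10358 and 16135 CPM in metastasis members with exactly 2 markers and to 4464 and 13641 CPM in those with 3 or more, and *Pdgfra* stood at 314 and 1535 CPM and at 63.8 and 1190 CPM. In metastasis replicate 6 these fibroblast genes were thus high in both kinds of members. Cells with exactly 1 marker, which the rule left out, numbered 2, 26, 119 and 29, and their keratins summed to 0, 990, 123 and 2259 CPM. Keratins thus spoke against the label in the metastasis cells with 2 markers. Collagens and *Pdgfra* put it in doubt in metastasis replicate 6, above all in its 11 members without *Upk3b* (19844 and 2031 CPM, keratins 104 CPM). Its 9 *Upk3b*-positive members had 5519 and 95.8 CPM, with keratins at 2165 CPM. These keratin counts numbered 113, and most of them came from the same single cell as above. The comparison was also run on the *Upk3b*-positive cells alone (5, 7, 51 and 9 cells).

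**Figure D1:**
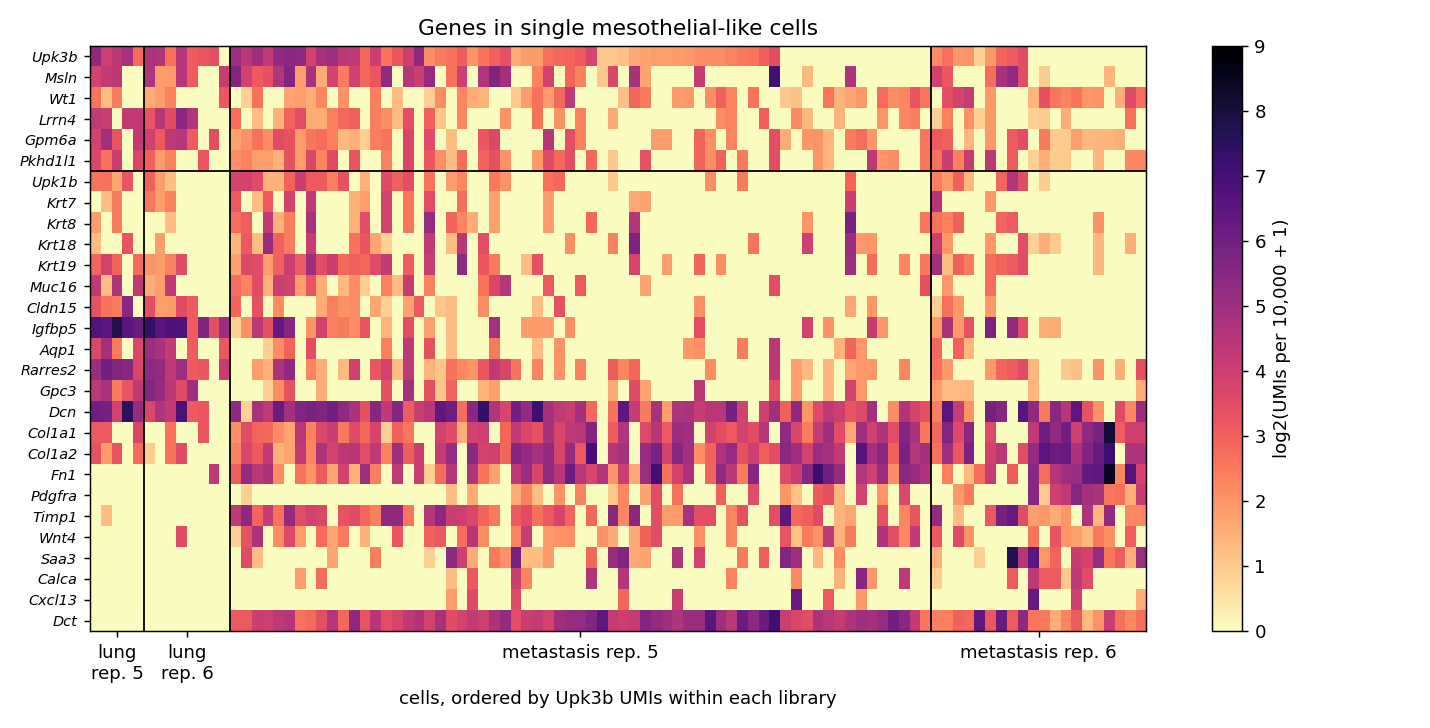
Each column is 1 of the 98 members in the 4 tested libraries, ordered by *Upk3b* UMIs within a library, each row is a gene, and color gives log2(UMIs + 1) after scaling each cell to the same total. *Igfbp5* was seen in 5 of 5 and 8 of 8 lung members and in 26 of 65 and 9 of 20 metastasis members, whereas *Saa3* was seen in 0 lung members and in 27 and 14 metastasis members.

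Counts were summed over the members of each library and compared across all genes with edgeR's quasi-likelihood test, 2 libraries against 2, with Benjamini-Hochberg adjustment. Mesothelial-like cells of metastases had higher levels of *Saa3*, *Fn1*, *Timp1* and *Mt1*, and lower levels of *Igfbp5*, *Gpc3*, *Aqp1* and *Muc16*. Outside the 10 genes of the rule, 1551 genes passed the filter on low counts and 79 of them (5.09%) had an adjusted p below 0.05, 30 higher in metastasis (1.93%) and 49 lower (3.16%). Without lung replicate 5 the count fell to 6, all lower in metastasis, of which *Hlf* and *Gsta3* were among the 79. Without lung replicate 6 it fell to 0 by the same edgeR test, with 216 genes at an unadjusted p below 0.05. The calls of this comparison, over all members, were therefore lost without lung replicate 6. Among *Upk3b*-positive cells, 14 of the 30 higher genes had enough counts to be tested, and all of these passed again but *Col1a1* and *Col1a2*. The other 16, among them *Pdgfra*, *Calca* and *Cxcl13*, could not be tested there. Of the 49 lower genes 25 could be tested, and 25 passed again. The *Upk3b*-positive cells are a part of the same members, split on a gene of the rule, and hold 5 of 5 and 7 of 8 lung members. Passing again was therefore likely from the start and is no independent support for a gene. Of all 591 genes tested in *Upk3b*-positive cells outside the rule 70 passed (11.8%), 17 higher (2.88%) and 53 lower (8.97%), and 37 of the 70 were among the 79. The log2 folds (metastasis over lung, on CPM scaled by TMM) ran from 2.69 to 6.46 for the 17 higher genes that were seen in lung and from -6.47 to -2.41 for the lower ones. The other 13 higher genes were at 0 in both lung libraries. They were the only tested genes at 0 there, and they could pass the filter just through metastasis, so that the filter set their direction, while 0 tested genes were at 0 in both metastasis libraries. Counts and medians of lists that hold such genes are given as a description. For the 13 genes a lower bound is given, taken against 3 counts over both lung libraries (60.3 CPM), and the bounds ran from 2.70-fold to 32.1-fold. The bounds cover the counting of UMIs only. The lung UMIs lay in 5 and 8 cells, so a gene held by a small share of cells could be missed there, and the bounds do not allow for this. The median log2 fold over all tested genes was 0.18. For all 79 genes the 2 lung libraries did not overlap with the 2 metastasis libraries, as was the case for 16.1% of all tested genes in the upward and 25.0% in the downward direction. The library names give the 4 libraries a mouse number each, all different, and the same run number, without saying which step the run stands for. The cells of metastasis replicates 5 and 6 were also deposited as replicates 7 and 8 under other mouse numbers, so which mouse they came from is uncertain.

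**Figure D2:**
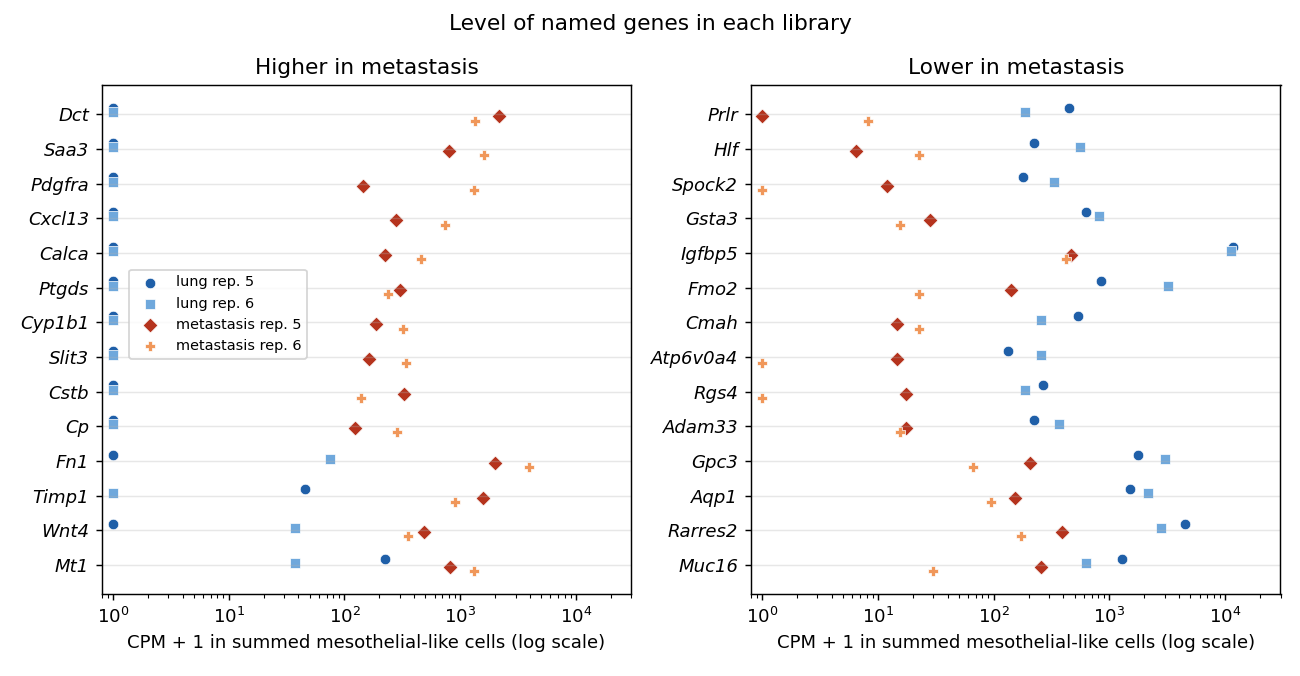
Level in CPM + 1 (log axis) of the genes with the largest changes and of 4 further genes per direction, with 1 point per library. *Saa3* stood at 0 CPM in both lung libraries and at 799 and 1599 CPM in metastasis, and *Igfbp5* at 11758 and 11242 CPM in lung and at 468 and 418 CPM in metastasis.

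The acute phase list held genes of proteins secreted during inflammation, together with *Mt1* and *Mt2*, which encode metal-binding proteins that are not secreted in this way. Of 22 genes in the list 10 passed the filter, and 5 of these rose in metastasis while 0 fell, with a median log2 fold of 2.50 (1.55 with genes at 0 in lung set to their bound). Over all tested genes 1.93% rose and 3.16% fell. Of the 5, *Saa3* and *Cp* were at 0 in lung and passed the filter through metastasis alone, so this count is partly fixed by the filter. The others were *Timp1*, which is also in the list of matrix enzymes, and *Mt1* and *Mt2*. *Saa3*, which encodes serum amyloid A3, was at 0 CPM in both lung libraries and at 799 and 1599 CPM in metastasis replicates 5 and 6, at least 16.9-fold higher (adjusted p = 2.06e-05, edgeR). It was seen in 27 of 65 and 14 of 20 metastasis members, and the strongest cell gave 59 of 292 and 110 of 222 counts. The groups did not overlap, and both metastasis libraries were high. The level was uneven over the metastasis members. Those with exactly 2 markers had 1665 and 1030 CPM and those with 3 or more had 403 and 1877 CPM. *Upk3b*-positive members had 721 and 613 CPM, against 1134 and 2192 CPM without *Upk3b*, and the *Upk3b*-positive cells alone passed the test (adjusted p = 4.27e-05, edgeR). In metastasis replicate 6 a single cell gave 27 of the 32 counts of the *Upk3b*-positive members, so the level there rested on this cell. The other cells of the same libraries had 0.845, 4.28, 43.7 and 127 CPM, so the sum over all members was above that of the surrounding cells in both metastases. The strongest cell of replicate 5 held 2 UMIs of *Upk3b*, 0 of the keratins and 50 of *Col1a2*. That of replicate 6 held 0 of *Upk3b*, 1 of the keratins and 54 of *Pdgfra*. For the *Upk3b*-positive members of replicate 6 the comparison with other cells rested on the single cell with 27 counts.

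*Saa3* lies on chr7:46711998-46715700 (minus strand, GRCm38, GENCODE vM21). The sequence before its start is shown because the gene was at 0 in lung members and among the 10 largest increases. It is from RefSeq (GRCm38.p6, chr7:46715701-46715926, minus strand, 226 bases), written toward the gene, and capitals mark the only match to TTGCNNAA, a C/EBP-type motif searched on both strands. Such a match was present in 9.56% of all 32851 RefSeq promoters over 250 bases.
Saa3: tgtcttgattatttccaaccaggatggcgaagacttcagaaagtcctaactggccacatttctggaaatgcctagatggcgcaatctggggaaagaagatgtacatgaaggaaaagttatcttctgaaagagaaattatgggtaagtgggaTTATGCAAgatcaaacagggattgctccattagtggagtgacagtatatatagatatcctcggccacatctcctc

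*Timp1*, encoding an inhibitor of matrix metalloproteinases, had 1 count in lung (44.4 and 0 CPM) and stood at 1560 and 893 CPM in metastasis. It was seen in 51 of 65 and 15 of 20 metastasis members, and its log2 fold was 6.05 ± 1.24 (SE, adjusted p = 0.000145, edgeR). Both metastasis libraries lay far above both lung libraries, and *Upk3b*-positive cells gave a log2 fold of 5.97 (adjusted p = 1.12e-05, edgeR). In metastasis replicate 6 a single cell gave 44 of the 68 *Timp1* counts of the *Upk3b*-positive members. The metallothioneins *Mt1* and *Mt2*, small metal-binding proteins that rise under stress, moved together. *Mt1* was at 222 and 36.7 CPM in lung and at 821 and 1311 CPM in metastasis (log2 fold 3.35 ± 0.94, adjusted p = 0.014, edgeR), and its log2 fold in *Upk3b*-positive cells was 3.79 (adjusted p = 0.000342, edgeR). *Mt2* was at 0 and 36.7 CPM and at 219 and 324 CPM (log2 fold 3.94 ± 1.26, adjusted p = 0.0377, edgeR). *Mt1* was high in the other cells of the metastasis libraries as well, at 908 and 858 CPM against 164 and 281 CPM in lung. *Cp*, the gene of ceruloplasmin, was at 0 CPM in lung and at 123 and 281 CPM in metastasis, at least 2.76-fold higher (adjusted p = 0.0158, edgeR). *C3*, the central complement component, was abundant in all 4 libraries (3061, 3343, 3246 and 4796 CPM) and did not pass the test (log2 fold 0.58 ± 0.85, adjusted p = 0.902, edgeR).

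*Mt1* and *Mt2* are neighbors on the plus strand of chromosome 8 (chr8:94179082-94180327 and chr8:94172664-94173568, GRCm38), and the stretches before their starts are shown because both genes rose. They are from RefSeq (GRCm38.p6, plus strand, chr8:94178839-94179081 and chr8:94172368-94172617). The stretch of *Mt1* ends just before the GENCODE start given here. That of *Mt2* ends at the RefSeq start, which lies a little upstream of its GENCODE start. Capitals mark matches to TGCACNC or TGCGCNC, the forms of the metal response element core, on either strand. *Mt1* had 1 match and *Mt2* had 3, while 21.4% of the 32851 promoters had at least 1 match and 1.26% at least 3.
Mt1: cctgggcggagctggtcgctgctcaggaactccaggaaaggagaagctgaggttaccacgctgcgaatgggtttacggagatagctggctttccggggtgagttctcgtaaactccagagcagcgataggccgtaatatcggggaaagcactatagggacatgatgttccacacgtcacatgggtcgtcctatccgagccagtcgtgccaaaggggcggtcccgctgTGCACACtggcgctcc
Mt2: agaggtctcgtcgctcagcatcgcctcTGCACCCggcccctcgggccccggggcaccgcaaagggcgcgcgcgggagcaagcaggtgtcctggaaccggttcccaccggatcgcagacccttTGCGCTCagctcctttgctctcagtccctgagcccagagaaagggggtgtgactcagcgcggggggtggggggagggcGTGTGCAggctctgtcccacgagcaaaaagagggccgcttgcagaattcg

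Some genes of the fibrous matrix rose. *Fn1*, encoding fibronectin, was at 0 and 73.5 CPM in lung and at 2009 and 3896 CPM in metastasis (log2 fold 6.46 ± 1.19, adjusted p = 2.06e-05, edgeR). It was seen in 1 lung member and in 56 of 65 and 16 of 20 metastasis members, and a single cell gave 216 of the 541 counts of metastasis replicate 6. *Upk3b*-positive metastasis members had 1595 and 345 CPM, against 3795 and 6034 CPM without *Upk3b*, and a log2 fold of 4.42 (adjusted p = 0.000256, edgeR). Of 43 collagen and matrix genes 25 were tested, and 4 of them rose (*Col1a1*, *Col1a2*, *Col4a1*, *Col4a2*) while 2 fell (*Ogn*, *Efemp1*), with a median log2 fold of 0.92. Over all tested genes 1.93% rose and 3.16% fell. *Col1a2*, a chain of collagen I, stood at 621 and 220 CPM in lung and at 2088 and 4162 CPM in metastasis (log2 fold 3.18 ± 0.92, adjusted p = 0.017, edgeR). Among *Upk3b*-positive cells *Col1a1* and *Col1a2* did not pass (log2 folds 1.63 and 1.93, adjusted p = 0.137 and 0.0664, edgeR). *Col4a1*, a chain of the basement membrane collagen IV, stood at 88.7 and 73.5 CPM in lung and at 739 and 598 CPM in metastasis (log2 fold 3.26 ± 0.97, adjusted p = 0.0235, edgeR).

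*Ccdc80*, encoding a matrix protein, stood at 177 and 184 CPM in lung and at 1724 and 1455 CPM in metastasis (log2 fold 3.35 ± 0.93, adjusted p = 0.011, edgeR), in 61 of 65 and 16 of 20 metastasis members, and its log2 fold in *Upk3b*-positive cells was 2.81 (adjusted p = 0.00699, edgeR). *Ogn*, encoding the small proteoglycan osteoglycin, fell, with 843 and 698 CPM in lung and 62.9 and 28.8 CPM in metastasis (log2 fold -3.77 ± 0.84, adjusted p = 0.000623, edgeR). *Efemp1*, encoding the matrix glycoprotein fibulin-3, stood at 1331 and 1102 CPM against 73.9 and 72.0 CPM (log2 fold -3.82 ± 0.84, adjusted p = 0.000623, edgeR). Both lung libraries were above both metastasis libraries for both genes. Of 13 tested matrix enzymes and inhibitors 2 rose (*Timp1* and *Adamts1*) and 0 fell, with a median log2 fold of 1.22. Of 7 tested mesenchymal genes 2 rose (*Fn1* and *Pdgfra*) and 0 fell, with a median of 1.78. *Pdgfra* passed the filter through metastasis alone, so the filter fixed its direction in each list that holds it. Over all tested genes 1.93% rose and 3.16% fell. *Pdgfra*, a growth factor receptor of fibroblasts, was at 0 CPM in both lung libraries and at 142 and 1303 CPM in metastasis, at least 7.66-fold higher with both metastasis libraries pooled (adjusted p = 0.000107, edgeR). This bound rested mostly on replicate 6, since replicate 5 lay far closer to the 60.3 CPM taken for lung. *Pdgfra* was seen in 23 of 65 and 13 of 20 metastasis members. Its level in metastasis differed with *Upk3b*, with 91.0 and 95.8 CPM in *Upk3b*-positive members and 364 and 2031 CPM in members without *Upk3b*. The 14 genes of the fibroblast list summed to 13710 and 7568 CPM in lung members and to 21350 and 24391 CPM in metastasis members. Of the 8 tested genes of this list 3 rose (*Col1a1*, *Col1a2*, *Pdgfra*) and 2 fell (*Clec3b*, *Ogn*), so the list did not move as a whole. The part of fibroblast genes in the higher matrix genes was not tested. When cells with UMIs of at least 2 of the 5 fibroblast genes were removed, 19 of the 79 called genes could still be tested, and 11 of 315 tested genes passed, 4 higher and 7 lower, by the same edgeR test.

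The genes that the study named for metastasis cancer-associated fibroblasts (CAF) were looked up in the same cells. The study chose this list on these samples, so its direction is not independent evidence. Of the list without *Wt1*, 6 genes were tested, and 3 rose (*Saa3*, *Wnt4*, *Calca*) while 0 fell, beside 1.93% and 3.16% over all tested genes. The median log2 fold was 3.25 (2.11 with bounds), and *Saa3* and *Calca* passed the filter through metastasis alone. *Wnt4*, a secreted Wnt ligand, was at 0 and 36.7 CPM in lung and at 484 and 353 CPM in metastasis (log2 fold 4.54 ± 1.25, adjusted p = 0.0109, edgeR), and its log2 fold in *Upk3b*-positive cells was 4.16 (adjusted p = 0.00429, edgeR). *Calca*, encoding calcitonin and calcitonin gene-related peptide, was at 0 CPM in lung and at 222 and 461 CPM in metastasis, at least 4.77-fold higher (adjusted p = 0.00328, edgeR). In metastasis replicate 5, 75 of its 81 counts lay in the 23 cells with exactly 2 markers (654 CPM) and 6 in the 42 cells with 3 or more (23.9 CPM), while replicate 6 had 482 and 450 CPM in these cells. *Upk3b*-positive members had 185 and 38.3 CPM, too few counts to be tested. The other 3 genes were already present in lung members. *Clu*, encoding the chaperone clusterin, stood at 843 and 1323 CPM in lung and at 1675 and 1073 CPM in metastasis, with overlapping libraries (log2 fold 0.55 ± 0.80, adjusted p = 0.902, edgeR). *Cxadr*, encoding a junction protein, stood at 666 and 257 CPM in lung and at 520 and 648 CPM in metastasis (log2 fold 0.60 ± 0.79, adjusted p = 0.884, edgeR). *Lgals7*, encoding galectin-7, stood at 266 and 36.7 CPM against 843 and 158 CPM (log2 fold 1.96 ± 0.88, adjusted p = 0.233, edgeR).

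Receptors for inflammatory ligands were thinly covered. *Il1r1*, the interleukin-1 receptor, was at 0 CPM in lung and at 145 and 259 CPM in metastasis, at least 2.93-fold higher (adjusted p = 0.0158, edgeR), and was seen in 23 of 65 and 11 of 20 members. Metastasis members with exactly 2 markers had 262 and 395 CPM and those with 3 or more had 91.7 and 193 CPM, while *Upk3b*-positive members had 142 and 76.7 CPM and those without *Upk3b* 160 and 369 CPM. *Tnfrsf1a*, a receptor for tumor necrosis factor, had 44.4 and 73.5 CPM in lung and 151 and 57.6 CPM in metastasis and did not pass the filter. *Tlr4*, a receptor for bacterial lipopolysaccharide, had 0 counts in lung and 5 and 1 counts in metastasis, which the depth of the lung members cannot tell from 0. Of 26 genes in the list of interleukin-1, interleukin-6 and tumor necrosis factor signaling, 5 were tested, 1 rose (*Il1r1*) and 0 fell (median log2 fold 0.13), beside 1.93% higher and 3.16% lower over all tested genes. *Il1r1* passed the filter through metastasis alone, so its direction was fixed by the filter. Among 27 chemokines and cytokines only *Cxcl13*, a B cell attractant, passed the filter. It was at 0 CPM in lung and at 279 and 742 CPM in metastasis (adjusted p = 0.000623, edgeR), but just 8 and 3 cells held it, and a single cell gave 61 of 102 and 90 of 103 counts. Its bound of 6.74-fold counts UMIs only and does not cover that the few lung members could have missed such cells.

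Further genes at 0 in both lung libraries were among the 10 with the largest fitted fold. *Cyp1b1*, a cytochrome P450 enzyme, reached 186 and 317 CPM in metastasis (at least 3.68-fold, adjusted p = 0.00886, edgeR). *Slit3*, a secreted guidance ligand, reached 161 and 338 CPM (at least 3.49-fold, adjusted p = 0.00886, edgeR). *Cstb*, the protease inhibitor cystatin B, reached 328 and 137 CPM (at least 4.57-fold, adjusted p = 0.0109, edgeR), and it passed in *Upk3b*-positive cells (adjusted p = 0.000897, edgeR). *Vcam1*, an adhesion molecule for leukocytes, was outside the 10 and reached 241 and 158 CPM (at least 3.62-fold, adjusted p = 0.0159, edgeR). *Cyp1b1*, *Slit3* and *Cstb* were seen in 6 to 42 cells of each metastasis library, so they were spread over more cells than *Cxcl13*.

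*Igfbp5*, the most abundant of the lower genes named here, encodes an insulin-like growth factor binding protein (chr1:72857932-72874884, minus strand, GRCm38). It stood at 11758 and 11242 CPM in lung and at 468 and 418 CPM in metastasis (log2 fold -4.47 ± 1.01, adjusted p = 0.00071, edgeR). All lung members of both libraries held it, against 26 of 65 and 9 of 20 metastasis members. The libraries were far apart and close to each other within each tissue. In *Upk3b*-positive cells the log2 fold was -3.92 (adjusted p = 0.00104, edgeR), and with cells thinned to equal depth it was -4.06 (adjusted p = 0.000218, edgeR). The single member of lung replicate 1 had 8 counts of *Igfbp5* in 3202 UMIs, and that of metastasis replicates 1-3 had 0 in 7140.

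Some genes of the mesothelial surface fell in metastasis. Of 17 tested mesothelial genes outside the rule 3 fell (*Rarres2*, *Muc16*, *Cldn15*) and 0 rose, with a median log2 fold of -0.76. Over all tested genes 3.16% fell and 1.93% rose. *Rarres2*, encoding the chemoattractant chemerin, stood at 4526 and 2792 CPM in lung and at 389 and 173 CPM in metastasis (log2 fold -3.49 ± 0.88, adjusted p = 0.00404, edgeR). *Muc16*, the surface mucin that binds mesothelin, stood at 1287 and 625 CPM against 257 and 28.8 CPM (log2 fold -2.50 ± 0.78, adjusted p = 0.0308, edgeR). *Cldn15*, a claudin of tight junctions, stood at 799 and 551 CPM against 107 and 57.6 CPM (log2 fold -2.78 ± 0.80, adjusted p = 0.017, edgeR). Of 7 tested lubricant and surface glycoprotein genes 3 fell (*Muc16*, *Aqp1*, *Gpc3*) and 0 rose (median -0.51). *Gpc3*, the heparan sulfate proteoglycan glypican-3, stood at 1775 and 3013 CPM in lung and at 205 and 64.8 CPM in metastasis (log2 fold -3.92 ± 0.87, adjusted p = 0.000623, edgeR). *Aqp1*, a water channel, stood at 1509 and 2168 CPM against 151 and 93.6 CPM (log2 fold -3.68 ± 0.85, adjusted p = 0.00111, edgeR). In *Upk3b*-positive cells alone all 5 of these genes were lower again by the same edgeR test (adjusted p = 0.000256 for *Rarres2*, 0.00992 for *Muc16* and for *Cldn15*, 3.14e-05 for *Gpc3* and 0.000465 for *Aqp1*). A narrower set of mesothelial genes outside the rule overlapped there, at 6655 and 3807 CPM in lung and 4801 and 4158 CPM in metastasis. In metastasis it stood at 575 and 329 CPM in members with exactly 2 markers and at 5912 and 2585 CPM in those with 3 or more. The fall thus covered the named genes and not this set as a whole.

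None of the 4 keratins passed the test over all members. *Krt19* stood at 843 and 294 CPM in lung and at 583 and 367 CPM in metastasis (log2 fold -0.03 ± 0.77, adjusted p = 0.994, edgeR). *Krt18* stood at 88.7 and 36.7 CPM against 515 and 194 CPM (log2 fold 2.73 ± 1.02, adjusted p = 0.106, edgeR), without overlap but short of the threshold, which it passed in *Upk3b*-positive cells (log2 fold 2.85, adjusted p = 0.0171, edgeR). In metastasis replicate 6 a single *Upk3b*-positive cell held 17 of its counts and each other member at most 2. Of 10 tested junction and keratin genes 0 rose and 1 fell (*Cldn15*), with a median log2 fold of 0.33.

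The remaining genes with the largest decreases differed in how many lung cells held them. *Prlr*, the prolactin receptor, stood at 444 and 184 CPM in lung and at 0 and 7.20 CPM in metastasis (log2 fold -6.47 ± 1.09, adjusted p = 4.87e-06, edgeR), and was seen in 2 cells of each lung library. *Fmo2* and *Gsta3*, enzymes of foreign compound metabolism, were seen in 2 of 5 and 5 of 8 lung members each. *Gsta3* stood at 621 and 808 CPM against 27.4 and 14.4 CPM (log2 fold -4.75 ± 0.90, adjusted p = 3.22e-05, edgeR). *Fmo2* stood at 843 and 3196 CPM against 140 and 21.6 CPM (log2 fold -4.38 ± 0.88, adjusted p = 0.000107, edgeR). *Hlf*, a circadian transcription factor, the proteoglycan gene *Spock2*, *Cmah*, an enzyme of sialic acid synthesis, *Adam33*, a membrane protease, and *Rgs4*, a regulator of G protein signaling, had log2 folds from -4.84 to -3.97. *Atp6v0a4*, a subunit of the proton pump, was also among the 10 (log2 fold -4.16 ± 0.79, adjusted p = 3.22e-05, edgeR) but was seen in 1 cell of each lung library.

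RNA of other cell types was present in the members. The 10 melanoma genes of the list summed to 0 CPM in members of both lung libraries and to 2942 and 1664 CPM in members of metastasis replicates 5 and 6, against 21684 and 6005 CPM in all other cells of these libraries. *Dct*, a pigment enzyme of melanocytes, was at 0 CPM in lung members and at 2162 and 1332 CPM in metastasis members, at least 32.1-fold higher (adjusted p = 1.06e-05, edgeR), in 65 of 65 and 20 of 20 cells. The strongest cell gave 83 of 790 and 105 of 185 counts. These 2 cells held 1 UMI each of *Upk3b* and of *Msln* or *Lrrn4*, and 0 of the keratins, *Dcn*, *Col1a1* and *Col1a2*. Both were thus among the *Upk3b*-positive members, and in replicate 6 this cell gave 12385 of their 52185 UMIs. Whether whole melanoma cells passed the rule in this way was not tested. The other metastasis cells had 15852 and 3891 CPM of *Dct*. *Ptgds*, a prostaglandin D synthase, was at 0 CPM in lung and at 298 and 238 CPM in metastasis members, against 2221 and 704 CPM in the other cells. In all, 6 of the 30 higher genes (*Cd63*, *Col4a2*, *Dct*, *Fabp5*, *Ndufa13* and *Ptgds*) had a higher level in the other cells of both metastasis libraries than in the members. *Lyz2* was the only 1 of the 49 lower genes with a higher level in the other cells of both lung libraries, and the 12 macrophage genes summed to 311 and 2241 CPM in lung members and to 65.7 and 166 CPM in metastasis members. The 6 neutrophil genes summed to 133 and 4592 CPM in lung members and to 21.9 and 108 CPM in metastasis members. The 5 club cell genes were high everywhere, at 3061, 5327, 2556 and 2067 CPM. How much of these changes came from RNA of other cells was not tested, and no doublet caller was run.

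Other lists held few called genes. Of 9 tested complement genes, 11 of antigen presentation and interferon, 15 immediate early and heat shock genes, 10 of glycolysis and hypoxia, 6 of TGF-beta and BMP signaling and 3 of proliferation, 0 passed in either direction. Their median log2 folds were -0.42, 0.09, -0.03, 0.97, 0.45 and 2.84, beside 0.18 over all tested genes. Of the 20 proliferation genes, those that passed the filter were *Tubb5*, *Stmn1* and *Hmgb2*, and *Tubb5* stood at 0 and 110 CPM in lung and at 591 and 158 CPM in metastasis (adjusted p = 0.0884, edgeR). Of 7 tested growth factor genes 1 fell (*Igfbp5*), and of 8 tested prostaglandin and lipid genes 2 rose (*Ptgds* and *Fabp5*, both higher still in other metastasis cells). *Ptgds* passed the filter through metastasis alone.

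**Figure D3:**
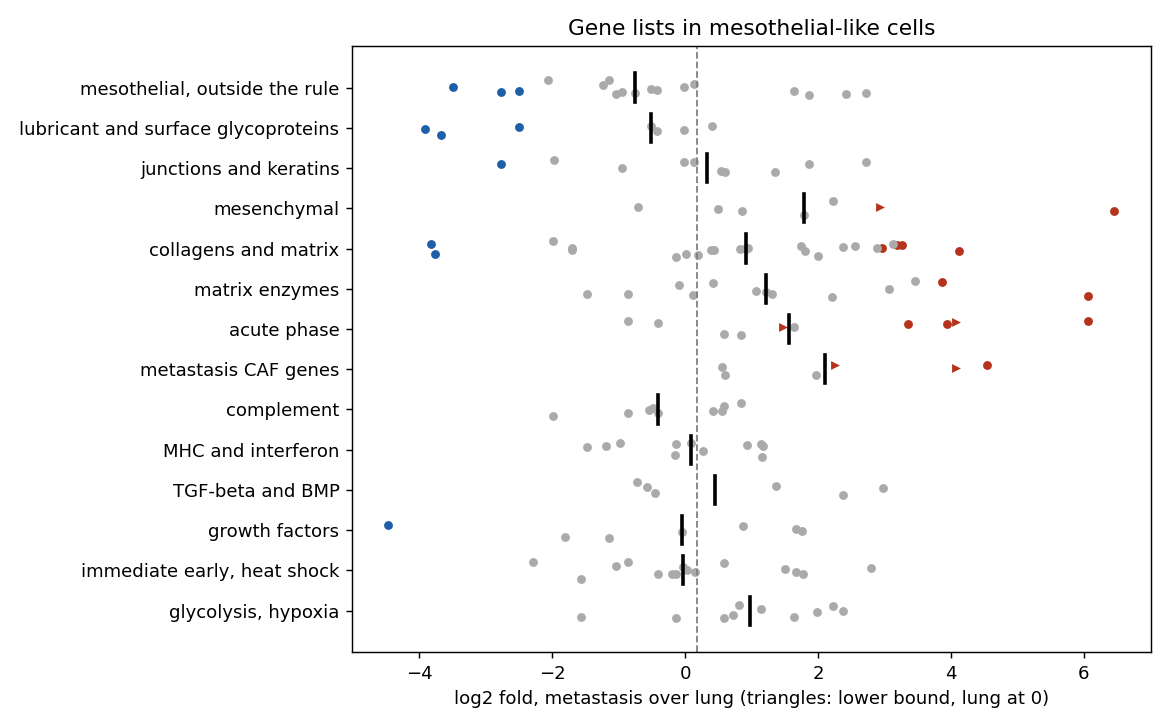
Each point is the log2 fold of a tested gene in metastasis over lung, triangles give the lower bound for genes at 0 in lung, color marks genes that passed (red higher, blue lower) and black bars are list medians. The dashed line is the median of all tested genes (0.18). The acute phase list holds 5 higher genes (*Saa3*, *Cp*, *Timp1*, *Mt1* and *Mt2*) and 0 lower, and mesothelial genes outside the rule hold 0 higher and 3 lower. *Saa3* and *Cp* passed the filter through metastasis alone. Over all tested genes 1.93% were higher and 3.16% lower.

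Since members differed in depth, the comparison was repeated with each cell thinned to 1000 UMIs. This left 5 and 7 lung cells and 65 and 19 metastasis cells, each with the same weight. Of 140 tested genes outside the rule 21 passed (15.0%), 10 higher (7.14%) and 11 lower (7.86%), and 12 of them had also passed before. These 12 were *Dct*, *Timp1*, *Fn1*, *Ccdc80*, *Col1a1*, *Col1a2*, *Gpc3*, *Rarres2*, *Aqp1*, *Igfbp5*, *Ogn* and *Cavin1*. *Saa3* had too few thinned counts to be tested. *B2m*, the light chain of MHC class I, passed at equal depth (log2 fold -1.85, adjusted p = 0.0044, edgeR) but not with all counts, where it stood at 1154 and 1065 CPM in lung and at 687 and 166 CPM in metastasis (adjusted p = 0.508, edgeR).

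The share of thinned cells with a UMI was set beside that in endothelial cells of the same libraries, taken as cells with UMIs of *Pecam1* and *Cdh5* and none of *Ptprc* or of the markers. Intervals are exact binomial at 95% and cover counting error only, and with 2 libraries against 2 an exact two-sided permutation test cannot go below p = 0.333. *Saa3* was found in 0 of 5 and 0 of 7 lung cells (upper limits 52.2% and 41.0%), in 20.0% of 65 metastasis cells of replicate 5 (11.1 to 31.8%) and in 42.1% of 19 of replicate 6 (20.3 to 66.5%). In endothelial cells it was 0.173%, 0.176%, 4.23% and 8.85%, and the median UMIs before thinning were 3296, 1700, 2374 and 4011 there and 4526, 1314, 4587 and 6692 in members. The lung intervals reached above both metastasis shares or into their intervals, so with so few lung cells the share of *Saa3* alone could not show a difference. Without thinning, 0, 0, 41.5% and 70.0% of members had *Saa3*. *Fn1* was found in 0%, 14.3%, 60.0% and 63.2% of members and in 1.90%, 10.0%, 22.1% and 23.9% of endothelial cells. *Igfbp5* was found in 100% of lung members of both libraries and in 21.5% and 15.8% of metastasis members, against 6.73%, 14.6%, 4.07% and 8.85% of endothelial cells. In the tissue where each of these 3 shares was higher, it lay above the endothelial share of the same library. *Aqp1* was found in 60.0% and 57.1% of lung members and in 10.8% and 5.26% of metastasis members, while endothelial cells, which express it, held it in 46.5% to 63.6% in all 4 libraries. *Dct* was found in 87.7% and 36.8% of metastasis members and in 94.8% and 65.5% of metastasis endothelial cells, so its share in members lay below that background.

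**Figure D4:**
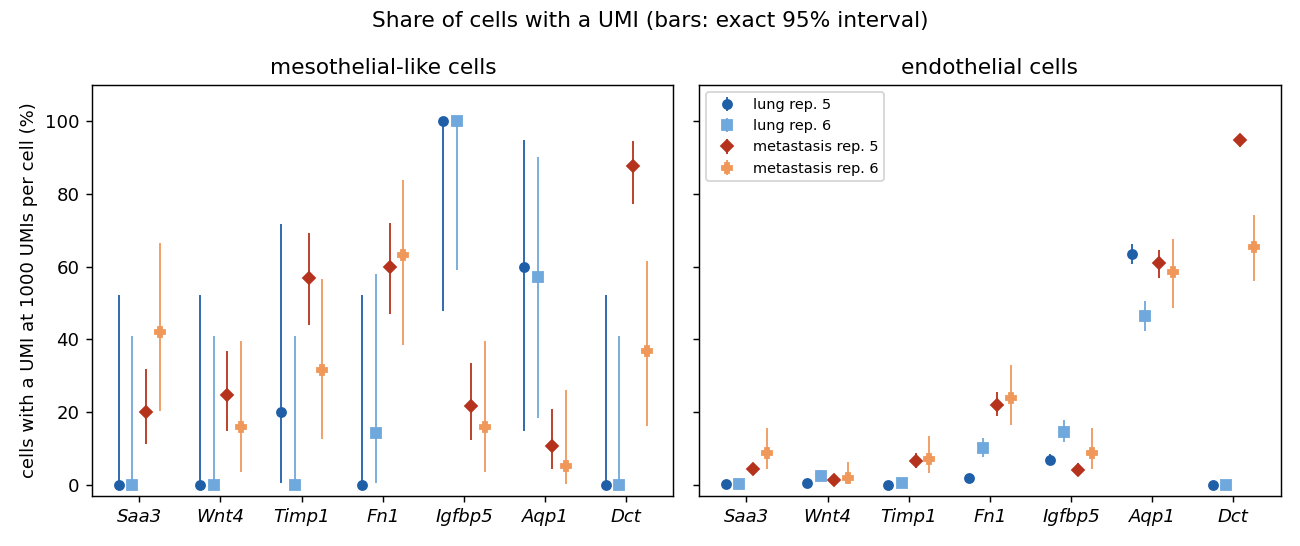
Share of cells (%) with a UMI after thinning to 1000 UMIs per cell, with exact 95% binomial intervals, in members (left) and endothelial cells (right) of the 4 libraries. *Igfbp5* falls from 100% in lung to 21.5% and 15.8% in metastasis members, and *Saa3* reaches 20.0% and 42.1% in metastasis members against 4.23% and 8.85% in endothelial cells.

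Fibroblasts of the same 4 libraries served to ask whether a change was particular to the mesothelial-like cells. They were taken as cells with UMIs of at least 2 of *Col1a1*, *Col1a2*, *Dcn* and *Pdgfra*, none of the exclusion genes and at most 1 mesothelial marker, and numbered 100, 194, 314 and 41. Of the 79 called genes 65 could be tested in fibroblasts, and 16 passed there in the same direction, where 496 of 7482 genes passed (6.63%), 222 higher (2.97%) and 274 lower (3.66%). The difference between the tissue effects was tested as an interaction with the library as a term. It passed for 125 of 7153 genes (1.75%), 93 with the higher effect in mesothelial-like cells (1.30%) and 32 with the lower (0.447%). With RLE in place of TMM scaling the split was 60 and 35, and without lung replicate 5, metastasis replicate 5 or metastasis replicate 6 the count was 63, 50 or 9. Of the 76 called genes that could be tested for the difference, 21 passed. Many of these calls were lost when 1 library was left out or when cells were thinned. The genes named next are given with the settings in which their call was lost.

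*Cxadr* and *Clu* rose in metastasis fibroblasts (adjusted p = 0.00236 and 0.0101, edgeR). The 6 rule markers summed to 0 CPM in both lung fibroblast sets and to 51.6 and 66.2 CPM in those of metastasis. Metastasis cells with exactly 1 marker, of any kind, had 128 and 147 CPM of *Cxadr* and 498 and 618 CPM of *Clu*. What cells with 1 marker gave to the fibroblast values was not tested. *Cxadr* was at 0 CPM in both lung fibroblast libraries and at 90.8 and 82.7 CPM in metastasis fibroblasts, whereas members had it in both tissues, and the effects differed (adjusted p = 1.59e-05, edgeR). *Clu* was at 34.4 and 46.7 CPM in lung fibroblasts and at 453 and 254 CPM in metastasis fibroblasts, and the effects differed (log2 difference -2.10 ± 0.56, adjusted p = 0.0162, edgeR). The call of *Cxadr* was lost without lung replicate 5 and with thinned cells. That of *Clu* was lost in 5 of 8 settings, among them leaving out lung replicate 6, metastasis replicate 5 or metastasis replicate 6. For *Saa3* the difference did not pass. Fibroblasts had 1.64 and 0 CPM in lung and 283 and 436 CPM in metastasis, and the interaction gave an adjusted p of 0.902 (edgeR) with a log2 difference of 3.53 ± 6.19, which leaves a wide range. *Fn1* was at 1028 and 672 CPM in lung fibroblasts and at 2762 and 7174 CPM in metastasis fibroblasts, and the effects differed (log2 difference 4.34 ± 0.92, adjusted p = 0.000661, edgeR), but not with DESeq2 or thinned cells.

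Among the lower genes, *Igfbp5* was at 1153 and 381 CPM in lung fibroblasts and at 175 and 375 CPM in metastasis fibroblasts, and the effects differed (log2 difference -2.59 ± 0.54, adjusted p = 0.000375, edgeR). *Aqp1* was low in fibroblasts of both tissues (16.4, 60.4, 31.6 and 66.2 CPM), and the effects differed (log2 difference -3.40 ± 0.60, adjusted p = 1.49e-05, edgeR). *Gpc3* fell in fibroblasts too, from 1083 and 716 CPM to 80.5 and 33.1 CPM (adjusted p = 0.00915, edgeR), and the difference did not pass (0.47 ± 0.55, adjusted p = 0.835, edgeR). *Timp3*, a matrix-bound protease inhibitor, stood at 4099 and 3307 CPM in lung and at 729 and 893 CPM in metastasis fibroblasts (adjusted p = 0.0875, edgeR). Members had 355 and 110 against 687 and 288 CPM, and the effects differed (3.96 ± 0.65, adjusted p = 1.25e-06, edgeR). *Fstl1* and *Igfbp4* showed the same order of effects (4.30 ± 0.78 and 3.57 ± 0.66, adjusted p = 2.78e-05 and 3.47e-05, edgeR). *Cdkn1a*, a cell cycle inhibitor, fell in members (577 and 331 against 87.6 and 28.8 CPM, in 1 and 2 lung cells) and stood at 18.0 and 43.9 against 123 and 55.1 CPM in fibroblasts (-3.88 ± 0.70, adjusted p = 2.86e-05, edgeR). Of these genes *Timp3* kept its interaction call in 8 of 8 settings. *Igfbp5*, *Aqp1*, *Fstl1* and *Igfbp4* lost theirs without metastasis replicate 6 and with thinned cells, and *Cdkn1a* without metastasis replicate 5.

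**Figure D5:**
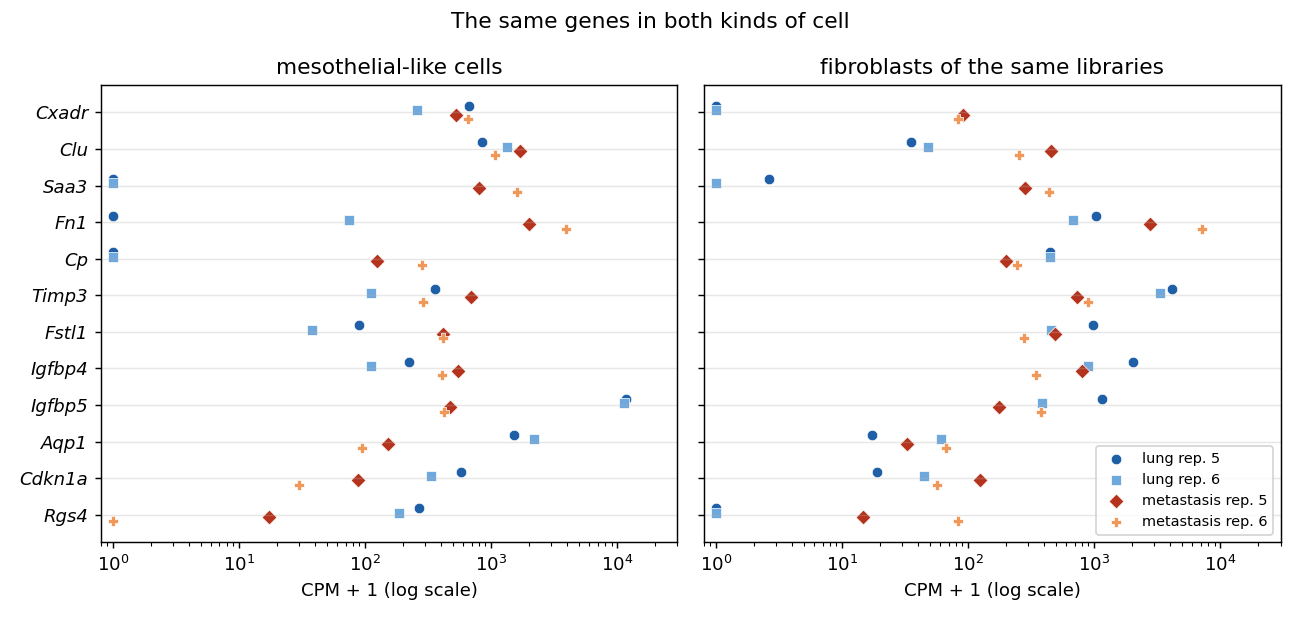
CPM + 1 (log axis) of 12 genes in members (left) and in fibroblasts (right) of the same 4 libraries, with 1 point per library. *Cxadr* is at 0 CPM in lung fibroblasts and at 666 and 257 CPM in lung members, and *Saa3* is at 0 CPM in lung members and highest in metastasis members (799 and 1599 CPM).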

How the data were processed

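Dissociated, frozen and sorted mouse cells were profiled with 10x Genomics 3' single-cell RNA-seq. According to the deposited material, the authors aligned reads with Cell Ranger 6.1.1 to GRCm38, dropped cells by quantiles of their ribosomal and mitochondrial share and of their number of detected genes, and merged libraries in Seurat 3.2.2. The counts used here are the authors' deposited raw UMI counts per gene and cell, with no normalization. A deposited normalized matrix was not used.

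Cells were taken from the counts, and a library's group from its label. Of 24 library names 5 repeat another library (metastasis replicates 7 and 8 hold the cells of 5 and 6) and 7 could not be mapped to a sample; repeated libraries were used a single time. Lung replicate 1 of the text is named replicate 2 in the table. Members, gene lists and tests were chosen with earlier results of these data known. Counts were summed per library where it held at least 5 members, since a minimum of 10 left no lung library. The sums were tested in edgeR 4.0.16 (filterByExpr, TMM, quasi-likelihood, R 4.3.3) with Benjamini-Hochberg adjustment at 0.05. The interaction fit used the summed members and fibroblasts of the 4 libraries with the library as a term. Genes of the rule got no test. Genes that chose the fibroblasts got no interaction result. Thinning drew 1000 UMIs per cell without replacement (numpy 2.4.6). Shares have exact binomial intervals (scipy 1.17.1). DESeq2 1.42.0 was an alternative. Sums were handled with pandas 2.3.3, and plots drawn with matplotlib 3.10.9.

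Genes named were those the study names for metastasis CAF and inflammatory receptors, the 10 largest changes per direction among called genes whose libraries did not overlap and whose mean reached 20 CPM, called members of each list with up to 4 more, and the 5 smallest p-values per direction of the interaction; Vcam1, Ccdc80, Cavin1, Cd63, Ndufa13 and B2m were added after their values were seen. No doublet caller was run. Tested on simulated counts for the comparison of members (1570 genes in the step with the largest change), the fit called 58.3% of genes changed by 3 log2 units, 3.95% of those changed by 2 and 0% of those changed by 1. The depth of the lung sums (22538 and 27219 UMIs) limits the precision, and a gene with 0 counts there may have reached 60.3 CPM, or more where few cells hold it.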

Additional observations from a re-analysis of the deposited data

Results flagged for a closer look

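The tissue effect differed between mesothelial-like cells and fibroblasts of the same libraries for 20 genes (edgeR interaction test, Benjamini-Hochberg adjusted p below 0.05) among those the study names, the 10 largest changes per direction, the called list members and the smallest interaction p-values. Values are log2 differences, positive where the effect of metastasis was higher in mesothelial-like cells. Many of these calls did not hold in other settings: *Timp3* kept its call in 8 of 8, *Timp1* and *Mt2* in 0 of 8, *Adamts1* in 1, *Cstb* and *Gsta3* in 2 and *Clu* and *Hlf* in 3 of 8. Without metastasis replicate 6, 14 of the 20 calls were lost. Where a tissue had 0 counts on one side, the value is a fitted one and no bound.

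The difference was positive for *Timp3* (3.96, adjusted p = 1.25e-06), *Fstl1* (4.30, 2.78e-05), *Igfbp4* (3.57, 3.47e-05), *Cp* (10.19, 5.9e-05), *Hpgd* (10.88, 7.65e-05), *Slit3* (9.88, 0.000235), *Fn1* (4.34, 0.000661), *Cstb* (8.84, 0.0166), *Adamts1* (3.83, 0.0332), *Mt2* (3.77, 0.0465) and *Timp1* (3.75, 0.0499), all by edgeR. *Cp*, *Hpgd*, *Slit3* and *Cstb* had 0 counts in lung members, and lung fibroblasts held each of them (448 and 442 CPM of *Cp*, 335 and 200 CPM of *Slit3*).

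The difference was negative for *Rgs4* (-10.10, adjusted p = 1.85e-07), *Aqp1* (-3.40, 1.49e-05), *Cxadr* (-7.27, 1.59e-05), *Cdkn1a* (-3.88, 2.86e-05), *Fxyd3* (-5.35, 2.86e-05), *Igfbp5* (-2.59, 0.000375), *Hlf* (-3.62, 0.0105), *Clu* (-2.10, 0.0162) and *Gsta3* (-2.56, 0.0339), all by edgeR. *Rgs4* and *Cxadr* had 0 counts in lung fibroblasts. *Fxyd3* rested on a single lung library, with 0 and 551 CPM in lung members and 93.1 and 28.8 CPM in metastasis members.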

How the results depend on the processing

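The 79 genes called in mesothelial-like cells were replaced by 35 with DESeq2 (34 of them among the 79), 29 without a filter on low counts (17), 21 with cells thinned to 1000 UMIs (12), 48 with at least 3 markers (44), 30 with the marker rule applied after thinning (27), 11 without cells holding at least 2 of 5 fibroblast genes (9, with 19 of the 79 tested) and 31 with libraries of at least 1 cell (23). With cells chosen without *Wt1* there were 60 (56 among the 79). Alternatives chosen after seeing the data gave 51 (at least 3 markers and at most 1 exclusion UMI, 46 among the 79), 184 (no exclusion genes, 48), 70 (*Upk3b*-positive cells, 37) and 32 (libraries thinned to the smallest sum, 28, beside 21 with thinned cells). Leaving out 1 library gave 0 to 82 genes, with 0 without lung replicate 6 and 6 without lung replicate 5. With an arm of 1 library, that library is assumed to vary like the others.

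With the replicate number as a block, 0 genes passed in edgeR (184 at an unadjusted p below 0.05). Same-numbered libraries carry different mouse numbers in their names, no shared litter or day is stated, and the deviations of same-numbered libraries correlated at -0.0752, so the numbers give no pairing. All called genes kept their direction in each setting in which they were tested, except that 75 of 76 did without exclusion genes.

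The interaction count of 125 became 22 with DESeq2 and 5 with thinned cells, and ranged from 9 to 110 without 1 library. For the 20 genes whose tissue effect differed from that in fibroblasts, 90 values over up to 8 settings kept the call, 66 lost it and 1 reversed. *Timp3* kept it in each setting, and *Timp1* and *Mt2* lost it in each. Without metastasis replicate 6 the call was lost for 14 of 20 genes, and with thinned cells for 15 of 17. *Clu* turned to -0.19 with thinned cells and to -0.095 in *Upk3b*-positive cells, and *Cxadr* to -0.19 without cells holding at least 2 fibroblast genes, and neither had passed. The interaction of *Fxyd3* ranged from -7.26 to 3.98 without 1 library and reversed without lung replicate 6. The cause was not tested. Cells were also removed where the 10 melanoma genes, or *Sftpc*, *Scgb1a1*, *Lyz2* and *Sftpa1*, summed to at least 2 UMIs. That left 0 cells, and a minimum of 20 cells left no fit. Of the single-gene values in the comparison, 240 kept their side of the threshold, 95 lost it, 2 gained it and 3 reversed.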
